A study of Homo sapiens with 26 samples.

Results

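The transcripts held at the outer mitochondrial membrane (OMM) of LARP4 null cells were measured by RNA-seq of 2 lysates, each read as total RNA and as RNA bound to streptavidin (the pulldown). These 4 libraries were all those of the LARP4 null line, out of 26 in the study. A gene was tested when its mean over the 2 total inputs was at least 64 reads, which kept 14709 of 60663 genes. The study asked which messages are translated beside mitochondria with LOCL-TL, in which the biotin ligase LOV-BirA is active only in light and labels nearby ribosomes through an Avi tag on the ribosomal protein RPL29. In the RNA-seq form of the assay the lysate is left undigested, so that a single labelled ribosome can carry its whole transcript onto the beads. HEK293T, a human embryonic kidney line, was the parent of every line, and the ligase was anchored at the OMM by the tail of OMP25, the protein encoded by SYNJ2BP. The ligase was driven by the EF1α promoter in polyclonal transduced cells. The LARP4 null libraries came from 1 monoclonal line made by Cas9 cutting, so an effect of losing LARP4 and a property of that clone cannot be told apart. Wild-type cells carrying a negative control guide RNA and monoclonal AKAP1 null cells, each with 2 lysates measured the same way, are given beside it. Translation elongation was arrested with cycloheximide in the general protocol, and the labels do not say otherwise for these lines. Nothing in the labels says whether the 2 lysates came from separate cultures, so p-values measure the spread between these lysates.

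Most mitochondrial proteins are encoded in the nucleus, made on cytosolic ribosomes and imported through the TOM and TIM complexes. Part of their messages is translated on the mitochondrial surface. Long messages are usually drawn there by the nascent chain, whose N-terminal presequence engages the import machinery, while short messages can be brought by RNA-binding proteins before translation is under way. AKAP1 is an OMM scaffold that binds RNA and protein kinase A. LARP4 is a La-related protein that binds poly(A) tails and the poly(A)-binding protein PABPC1, protects messages from decay and is tethered to mitochondria by AKAP1.

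The libraries held 47931044 and 58053512 reads for total input and pulldown of replicate 1, and 100840544 and 48094925 for those of replicate 2. Over the 12 libraries of the 3 genotypes the range was 38347615 to 100840544. The kidney and neuronal markers typical of HEK293T (PAX2, LIN28B, NEFM and INA) were read in every library, with a summed level of 173 to 405 CPM (reads scaled to the library total), against 4.78 to 23.2 CPM for markers of other cell types, nearly all of it COL1A1 (261 to 1278 reads), a fibroblast collagen. HBB, ALB and PTPRC had at most 9 reads in any library. The LARP4 message (chr12:50392383-50480004, GRCh38) was at 79.3 and 74.0 CPM in the LARP4 null total inputs and at 225 and 231 CPM in those of wild-type cells. It was thus present at a reduced level in both null lysates. The AKAP1 message was at 32.1 and 20.3 CPM in the AKAP1 null total inputs and at 121 and 142 CPM in those of LARP4 null cells.

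One library stood apart. MALAT1, a nuclear lncRNA, took the largest share of reads in the pulldown of replicate 2 (0.528%), whereas ribosomal protein RPS6 or the chaperonin HSPD1 led each of the other 5 pulldowns. Across the 14709 genes the enrichment in replicate 2 correlated with that in replicate 1 at Pearson r = 0.695, compared with 0.937 between the wild-type lysates and 0.891 between the AKAP1 null lysates. Replicate 1 of LARP4 null correlated with the 2 wild-type lysates at r = 0.929 and 0.923, and replicate 2 did so at 0.695 and 0.692. These correlations are across genes, which are not independent replicates. Enrichment here is the log2 ratio of CPM in the pulldown to CPM in the matched total input, with 0.5 reads added, so it is relative to all other reads of the library. Values below are fitted over both lysates unless each lysate is given, and both lysates or their difference are given for genes with enrichment values that differ by over 1.5 times between them.

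Compared with the total input, 1618 genes were enriched in the LARP4 null pulldown and 2305 were depleted at an adjusted p below 0.05 (edgeR quasi-likelihood test with the lysate as a block, Benjamini-Hochberg), which is 11.0% and 15.7% of the genes tested. All 1618 enriched genes had a log2 enrichment above 0 in both lysates, and all 2305 depleted genes had one below 0 in both. With 2 lysates a call nearly requires this, so it is no separate evidence of agreement. Among genes not called, 2507 were below 0 in replicate 1 and above 0 in replicate 2, and 870 were the reverse. The median over all genes was -0.18 in replicate 1 and 0.00 in replicate 2. Enriched genes coded for short proteins, with a median of 226 amino acids (aa) compared with 690.5 aa among depleted genes and 478 aa over all genes. Genes of the mitochondrial protein list made up 389 of the enriched genes (24.0%) and 63 of the depleted ones (2.73%), compared with 1029 of 14709 (7.0%) tested. Setting the reads on trimmed means (TMM) moved the split from 41.2% enriched among called genes to 51.4%, and DESeq2 gave 53.1%. Over all genes tested 4905 were above 0 in both lysates and 6427 were below 0 in both. Each lysate was also fitted alone, with the spread taken from the wild-type and AKAP1 null lysates. Those lysates differed less from each other. The SD of the difference between lysates was 0.30 in wild-type, 0.31 in AKAP1 null and 0.55 in LARP4 null cells. Counts from the single-lysate fits are therefore no evidence of enrichment and are given only among the processing settings.

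**Figure D1:**
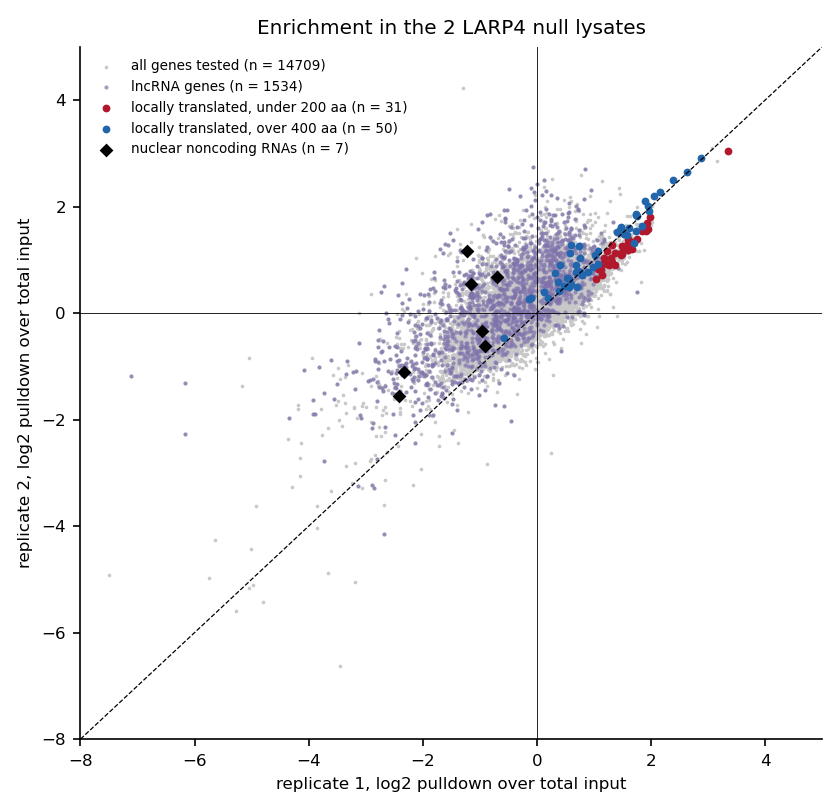
Log2 enrichment of each of the 14709 genes tested in replicate 1 (x axis) and replicate 2 (y axis) of LARP4 null cells, with the dashed line marking equal values. All 31 short locally translated messages lie to the right of 0 and just under the line, while 1307 of 1534 lncRNA genes and all 7 nuclear noncoding RNAs lie above it.

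Of the 10 largest rises among protein-coding genes with at least 1000 reads, 3 were respiratory chain subunits, 6 were other mitochondrial genes and 1 was EIF4G1, a cytosolic factor given further on. NDUFB9, an accessory subunit of complex I (179 aa), was at 106 and 106 CPM in the total inputs and at 1074 and 871 CPM in the pulldowns, a fitted log2 enrichment of 3.19 (SE 0.17, 9.14-fold, adjusted p = 0.000172). COX6A1 (chr12:120438090-120440737), a subunit of complex IV of 109 aa, was at 69.3 and 60.6 CPM in the total inputs and at 617 and 442 CPM in the pulldowns, with a log2 enrichment of 3.01 (SE 0.18, 8.06-fold, adjusted p = 0.000176). For both genes the pulldowns lay far above the total inputs with no overlap, and replicate 1 was the higher. UQCRC1 (chr3:48599002-48610976), a core subunit of complex III of 480 aa, was at 128 and 143 CPM in the total inputs and at 943 and 1084 CPM in the pulldowns. Its fitted value was 2.90 (SE 0.16, 7.47-fold, adjusted p = 0.000173), and here replicate 2 was the higher. PMPCA (525 aa), a subunit of the matrix peptidase that removes presequences, went from 97.8 and 96.6 CPM to 607 and 610 CPM, with a log2 enrichment of 2.65 (SE 0.16). The other mitochondrial messages among the 10 largest rises were METTL17 (2.44), which acts in mitochondrial ribosome assembly, DLD (2.21), the shared dehydrogenase subunit of the matrix 2-oxoacid dehydrogenases, OXSM (2.13) of mitochondrial fatty acid synthesis, ERAL1 (2.02), an rRNA chaperone of the mitochondrial small subunit, and PCK2 (2.00), the mitochondrial PEP carboxykinase. Both lysates gave near values for these 5, and the widest pair was PCK2 at 1.90 and 2.11. NDUFB9, DLD, OXSM and ERAL1 overlap other genes on the opposite strand.

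**Figure D2:**
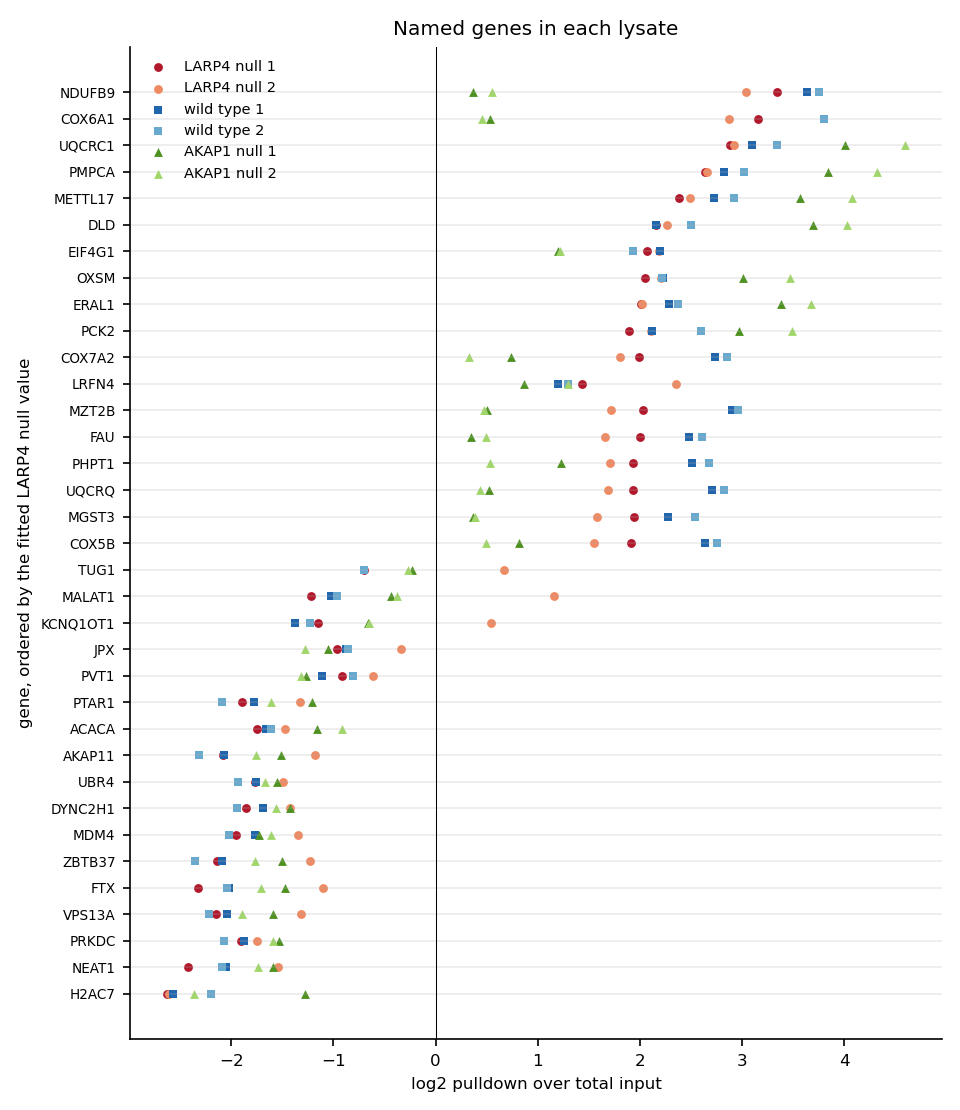
Log2 pulldown over total input (x axis) of the named genes (y axis, ordered by the fitted LARP4 null value) in each of the 6 lysates, 1 point per lysate. Points for the rises sit above 0 in all lysates, and MALAT1, TUG1 and KCNQ1OT1 are above 0 only in LARP4 null replicate 2 (1.16, 0.67 and 0.54).

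Short messages that are translated at the OMM were picked from separate wild-type libraries, the ribosome profiling of mitochondria-labelled cells, as mitochondrial genes under 200 aa whose footprint log2 enrichment was above 1.5. There were 31, of which 21 encode inner membrane proteins, and all passed the read minimum. All 31 were enriched in LARP4 null cells, with a fitted log2 of 0.84 to 3.19 and a median of 1.31, compared with -0.08 over all genes tested. Short messages in general were enriched too. Of all protein-coding genes up to 100 aa 124 of 248 were enriched, with medians of 0.74 and 0.56 in the 2 lysates. Above 100 and up to 200 aa 517 of 1286 were enriched, with medians of 0.54 and 0.37. The lysate medians were 1.48 and 1.16. Of mitochondrial genes under 200 aa below that threshold 132 of 142 were lower in replicate 2 than in replicate 1. So were 74 of 79 cytosolic ribosomal protein genes. Every one of the 31 was likewise lower in replicate 2, by a median of 0.32, while 59.8% of all genes were higher there. Besides NDUFB9, the largest values belonged to COX7A2 (1.90), UQCRQ (1.81), MGST3 (1.76) and COX5B (1.73), of which 3 are subunits of complexes III and IV and MGST3 is a membrane glutathione transferase. UQCRQ (82 aa), which overlaps GDF9 on the opposite strand, shows the pattern, with 98.0 and 86.8 CPM in the total inputs and 373 and 280 CPM in the pulldowns. The lowest of the list was GPX4, a glutathione peroxidase, at 0.84 (log2 values of 1.04 and 0.63 in the 2 lysates).

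The long counterpart, mitochondrial genes over 400 aa with a footprint log2 above 1.5, held 50 genes, 38 of them for matrix proteins. In LARP4 null cells 44 were enriched, 1 was depleted and 5 were not called. The median fitted value was 0.97, and the lysate medians were 0.93 and 1.11. Unlike the short list, most were higher in replicate 2 (36 of 50), with a median difference of 0.08, which is near the 0.10 of all genes. The depleted member was IMMT, the mitofilin of cristae junctions (758 aa), at 183 and 206 CPM in the total inputs and 122 and 148 CPM in the pulldowns (fitted -0.53, SE 0.16, adjusted p = 0.0397). IMMT was also below 0 in both wild-type lysates (-0.46 and -0.50). Members not called included FASTKD1, of a family of mitochondrial RNA-binding proteins (0.07), AASS of lysine breakdown (0.10) and the glycerol phosphate dehydrogenase GPD2 (0.27). Mitochondrial genes under 200 aa below that footprint threshold were also enriched in 101 of 142 cases (median 0.80), compared with 46 of 204 above 400 aa (median 0.11).

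By complex, 31 of 37 subunits of complex I were enriched and 2 were depleted, with a median of 1.05. Over all genes tested 11.0% were enriched and 15.7% depleted. The 2 depleted members were NDUFS1 (-0.60), the large iron-sulphur subunit, and NDUFV2 (-1.52, from -1.85 and -1.19 in the 2 lysates), which was low in the total inputs (2.57 and 3.02 CPM). All 12 subunits of complex IV were enriched (median 1.47, from COX7A2L at 0.67 to COX6A1), as were 8 of 9 of complex III (median 0.95) and 15 of 18 of complex V (median 0.99), with none depleted. Of complex II 2 of 4 were enriched, SDHA (0.87) and SDHB (0.62). ATP5F1B, the catalytic beta subunit of ATP synthase, was at 756 and 760 CPM in the total inputs and at 1275 and 1672 CPM in the pulldowns. The assembly factors of complex IV gave 9 enriched and 1 depleted of 23 (median 0.42), led by SURF1 and PET100 (both 1.53, PET100 from 1.88 and 1.19 in the 2 lysates), with COX15 (-0.48) depleted. In each complex the replicate 2 median was the lower, for example 1.63 and 1.29 for complex IV and 1.20 and 0.89 for complex I.

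Genes for gene expression inside mitochondria were enriched more often than all genes, of which 11.0% were enriched and 15.7% depleted. Of 77 mitochondrial ribosomal protein genes 45 were enriched and 1, MRPL42 (-0.71), was depleted, with a median of 0.63 and MRPL41 (1.60) and MRPL51 (1.39) at the top. Mitochondrial tRNA synthetases gave 11 enriched and 2 depleted of 17 (64.7% and 11.8%, median 0.62). FARS2 (1.80) and IARS2 (1.51) led them, and WARS2 (-0.48) and VARS2 (-1.95, about 1 CPM in the total inputs) were depleted. Translation factors gave 6 enriched of 10 (median 0.64), among them the elongation factor TUFM (1.74) and GUF1 (1.60). TUFM was at 206 and 184 CPM in the total inputs and at 739 and 575 CPM in the pulldowns. The lysate medians were 0.52 and 0.76 for the synthetases and 0.61 and 0.66 for the factors.

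Import, metabolism and membrane carriers were mixed. The TOM and TIM genes gave 13 enriched and 1 depleted of 24 (median 0.53), with TIMM44 (1.42), which docks the matrix motor, and the small receptor-associated TOMM7 (1.37) high and the receptor TOMM70 (-0.53) depleted. Both subunits of the presequence peptidase were high, PMPCA and PMPCB (1.72), while the aminopeptidase XPNPEP3 (-0.74) was depleted. Chaperones and proteases gave 7 enriched of 13 (median 0.57, HSPE1 at 0.97 and OMA1 at 0.82), and pyruvate and TCA cycle enzymes 7 of 20 (median 0.28). Outer membrane proteins split into 5 enriched and 4 depleted of 21, for instance the fission protein FIS1 (1.17) against MAVS (-0.77) and SYNJ2BP (-1.07). The SLC25 carriers, which lack a cleavable presequence in most cases, gave 5 enriched and 8 depleted of 41 (12.2% and 19.5%, near the 11.0% and 15.7% of all genes, median 0.06, SLC25A1 at 0.63 and SLC25A36 at -1.28). The 13 protein-coding genes of the mitochondrial genome did not pass the read minimum, and MT-CO1, MT-CYB and MT-ND1 were listed at 0 in every library.

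**Figure D3:**
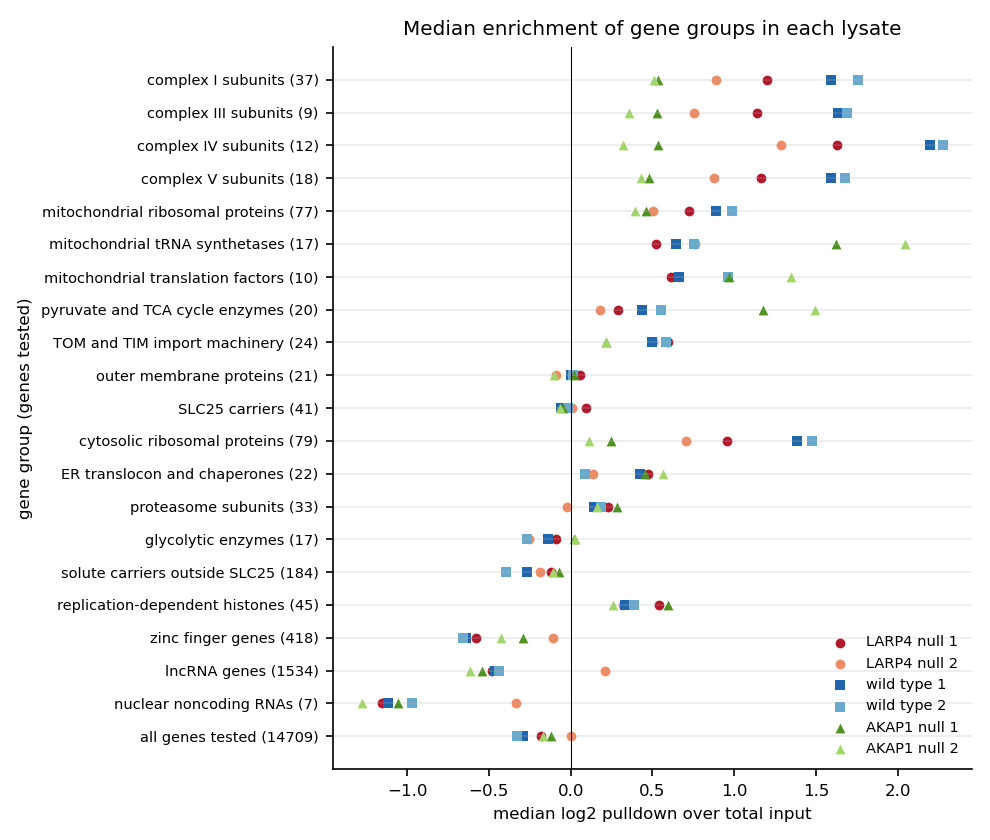
Median log2 pulldown over total input (x axis) of 21 gene groups (y axis, with the number of genes tested) in each of the 6 lysates. The LARP4 null points of complexes I, III, IV and V lie between the wild-type points above them and the AKAP1 null points below, and the replicate 2 points of zinc finger, lncRNA and nuclear noncoding genes lie to the right of all other lysates.

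Outside the mitochondrial list 67 of 79 cytosolic ribosomal protein genes were enriched and 2 were depleted, against 11.0% and 15.7% of all genes. Their median was 0.82 (0.96 and 0.70 in the 2 lysates). RPL36 (1.34) was among the enriched genes, and RPSA (-0.53) and RPL36A (-0.79) were the 2 depleted genes. RPL29, whose tagged product is the target of the ligase, was at 379 and 247 CPM in the total inputs and at 495 and 294 CPM in the pulldowns (fitted 0.32, SE 0.16, adjusted p = 0.161). The largest other rises outside both lists were EIF4G1 (2.13), the scaffold of the cap-binding complex, LRFN4 (1.90, from 1.44 in replicate 1 and 2.35 in replicate 2), a neuronal adhesion protein, MZT2B (1.87) of the gamma-tubulin complex, FAU (1.82), which encodes ribosomal protein RPS30 fused to a ubiquitin-like domain, and the histidine phosphatase PHPT1 (1.82). EIF4G1 (1599 aa) was at 846 and 1029 CPM in the total inputs and at 3558 and 4692 CPM in the pulldowns (4.38-fold, SE 0.15, adjusted p = 0.00054). Its footprints in the mitochondrial ribosome profiling lay on the other side, at a log2 of -1.61 and -0.75 in 2 replicates, and its RNA enrichment in wild-type cells was 2.20 and 1.93. MZT2B had a footprint log2 of 2.70. LRFN4, MZT2B, FAU and PHPT1 each overlap another tested gene, the last 2 on the same strand, and whether reads were counted by strand is not given in the sources used here.

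Secretory and housekeeping groups are given beside the 11.0% enriched and 15.7% depleted of all genes. ER translocon and chaperone genes gave 7 enriched and 0 depleted of 22 (median 0.33, SEC61B at 1.05 and SSR4 at 1.03), with lysate medians of 0.47 and 0.14. Solute carriers outside SLC25 gave 9 enriched and 37 depleted of 184 (4.89% and 20.1%, median -0.15), and integrins, laminins, cadherins and collagens gave 0 and 8 of 56 (14.3% depleted, median -0.21), with ITGA2 the lowest. Of 17 glycolytic enzymes only HK1 (0.63), the hexokinase that docks on mitochondria, was enriched, and of 33 proteasome subunits 5 were enriched and 3 depleted (15.2% and 9.09%). Replication-dependent histone genes gave 17 enriched and 1 depleted of 45. The depleted one, H2AC7, was the largest fall of all protein-coding genes above 1000 reads.

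Most of the largest falls were long messages, although the first was not. H2AC7 (130 aa) was at 43.0 and 35.2 CPM in the total inputs and at 6.94 and 5.76 CPM in the pulldowns, a fitted log2 of -2.62 (SE 0.17, adjusted p = 0.00035). PRKDC, the catalytic subunit of the DNA-dependent protein kinase (4128 aa), was at 1696 and 2497 CPM in the total inputs and at 453 and 745 CPM in the pulldowns (-1.83, SE 0.15, adjusted p = 0.00113). The others were the lipid transfer protein VPS13A (-1.73), the zinc finger gene ZBTB37 (-1.68), the p53 inhibitor MDM4 (-1.65), the dynein heavy chain DYNC2H1 (-1.64), the ubiquitin ligase UBR4 (-1.63), the kinase anchor AKAP11 (-1.63), acetyl-CoA carboxylase ACACA (-1.61) and PTAR1 (-1.61), which has prenyltransferase repeats. Of the 10 genes 6 code for proteins over 1000 aa. All 10 were below 0 in both lysates, but VPS13A, ZBTB37, MDM4 and AKAP11 were nearer 0 in replicate 2, at -1.32, -1.23, -1.35 and -1.18 compared with -2.15, -2.14, -1.96 and -2.08 in replicate 1. ZBTB37 overlaps the noncoding gene GAS5 on the other strand. Among noncoding RNAs of the cytoplasm RN7SL1, the RNA of the signal recognition particle, had the same low value in both lysates (-5.05 and -5.16, adjusted p = 1.26e-05). OIP5-AS1 was at -1.59 and -1.44.

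LARP4 itself was depleted, from 79.3 and 74.0 CPM to 40.1 and 37.2 CPM (fitted -0.99, SE 0.15, adjusted p = 0.00447), with the lysates at -0.98 and -0.99. In wild-type cells its values were -0.17 and -0.29. AKAP1 was enriched (0.86, SE 0.18, adjusted p = 0.0129), from 121 and 142 CPM in the total inputs to 181 and 311 CPM in the pulldowns. SYNJ2BP, which overlaps COX16 on the same strand, was depleted (-1.07, SE 0.16, adjusted p = 0.00435), and its wild-type values were -1.15 and -1.13. The list of LARP proteins and partners gave 3 enriched and 3 depleted of 14 (21.4% each, compared with 11.0% and 15.7% of all genes), with AKAP1 and LARP6 (0.59) the highest and PUM2 (-0.85), an RNA-binding repressor, and LARP4 the lowest.

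The pulldown of replicate 2 held more nuclear noncoding RNA than the other 5 pulldowns. Nuclear RNAs such as MALAT1 were known to be high in it before they were listed, so their values describe this library and test nothing. Of the 12 nuclear noncoding RNAs listed 7 were measured, and summed they stood at 2870 CPM in the total input and 1265 CPM in the pulldown of replicate 1, but at 3264 and 6079 CPM in those of replicate 2. The pulldown level was thus 0.441 of the total input in replicate 1 and 1.86 times it in replicate 2, compared with 0.489 and 0.502 in wild-type and 0.708 and 0.713 in AKAP1 null lysates. MALAT1 (chr11:65497688-65506516) was at 2136 and 918 CPM in total input and pulldown of replicate 1 and at 2358 and 5275 CPM in replicate 2. Its log2 values of -1.22 and 1.16 left the fitted value at -0.03 (SE 0.47, adjusted p = 0.972). Without MALAT1 the other 6 stood at 0.473 and 0.887 of their total input level.

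All 7 nuclear RNAs were higher in replicate 2, by a median of 1.23. TUG1, which acts in the nucleus and is annotated as protein-coding in GENCODE 44, was at -0.70 and 0.67, and the antisense transcript KCNQ1OT1 was at -1.15 and 0.54. The other 4 stayed below 0 in both lysates and were called depleted. These were NEAT1, the scaffold of paraspeckles (-2.42 and -1.55), FTX (-2.33 and -1.10), JPX (-0.96 and -0.34) and PVT1 (-0.91 and -0.61). FTX and JPX overlap on opposite strands, as do KCNQ1OT1 and KCNQ1. MEG3, RN7SK, RMRP and RPPH1 were listed at 0 in every library and TERC had at most 23 reads. The 5 cytoplasmic noncoding RNAs measured had a median difference of 0.13, with 3 higher and 2 lower in replicate 2. NORAD, a cytoplasmic lncRNA that binds PUM proteins, differed most among them, at -0.61 and 0.86 in the 2 lysates.

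Over single genes with at least 1000 reads the largest excess in replicate 2 belonged to LINC00632, a lncRNA gene, at 342 and 188 CPM in total input and pulldown of replicate 1 and at 371 and 1330 CPM in replicate 2 (a difference of 2.71 on the log2 scale). It was followed by the pseudogene ENSG00000246596 (2.50), MALAT1 (2.38), the pseudogene MTND2P28 on chromosome 1 (2.38) and the pseudogene ENSG00000260404 (2.36). MTND2P28 was below 0 in both lysates (-4.18 and -1.80). The largest deficits were much smaller. The lncRNA gene ENSG00000263731 had a difference of -1.14, NBN of the double-strand break sensor -0.94, the small nucleolar RNA SNORD3A -0.91, SH3BGRL3 -0.71 and the pseudogene ENSG00000170089 -0.64. For ENSG00000263731 the total inputs themselves differed, at 490 and 40.8 CPM.

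Over classes of genes, the median difference between replicate 2 and replicate 1 was 0.70 for 1534 lncRNA genes and 0.06 for 12404 protein-coding genes, and 1307 of the lncRNA genes were higher in replicate 2. The same differences were 0.04 and -0.03 between the wild-type lysates. A difference above 1 was found for 1322 genes, 542 of them lncRNA and 525 protein-coding genes, and one below -1 for 27 genes. In wild-type cells these counts were 81 and 109, and in AKAP1 null cells 80 and 113. Small nucleolar RNAs (29 genes, 0.81) and unconfirmed transcripts of the TEC class (96 genes, 1.19) were also higher. So were transcribed unprocessed (196 genes, 0.69), transcribed processed (58 genes, 0.75), transcribed unitary (31 genes, 0.82) and unprocessed pseudogenes (30 genes, 0.85). Processed pseudogenes not marked as transcribed, which are spliced copies of messages, were not (247 genes, -0.07). LncRNA took 1.12% of reads in the pulldown of replicate 1 and 2.06% in that of replicate 2, compared with 0.961 to 1.17% in the other 4 pulldowns.

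Protein-coding messages followed their length. The median difference was -0.23 for proteins up to 100 aa, -0.11 above 200 and up to 400 aa, 0.19 for proteins above 600 and up to 1000 aa and 0.61 above 2000 aa, and the share of genes higher in replicate 2 rose from 19.8% to 93.6% over these bins. In wild-type cells the same medians ran the other way, from 0.09 to -0.14. The 418 zinc finger genes, whose messages code for nuclear factors, had a median difference of 0.44, with 380 higher in replicate 2, and medians of -0.58 and -0.11. Genes with 1 exon were at 0.37 (276 genes), those with 4 to 10 exons at -0.07 and those with more than 20 at 0.29. GC content of the transcript showed no such order, since its bins lay between 0.03 and 0.09, although enrichment itself rose with GC in both lysates, from -0.51 and -0.41 below 40% to 0.28 and 0.40 above 60%. The difference was larger for weakly expressed messages, at 0.26 in the lowest bin of reads and -0.05 above 16000 reads. All tested genes with fewer than 80 reads were at -0.38 and 0.24 in the 2 lysates (549 genes), and the 703 genes just under the minimum were at -0.43 and 0.22. The part of these properties in the replicate 2 pulldown was not tested.

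**Figure D4:**
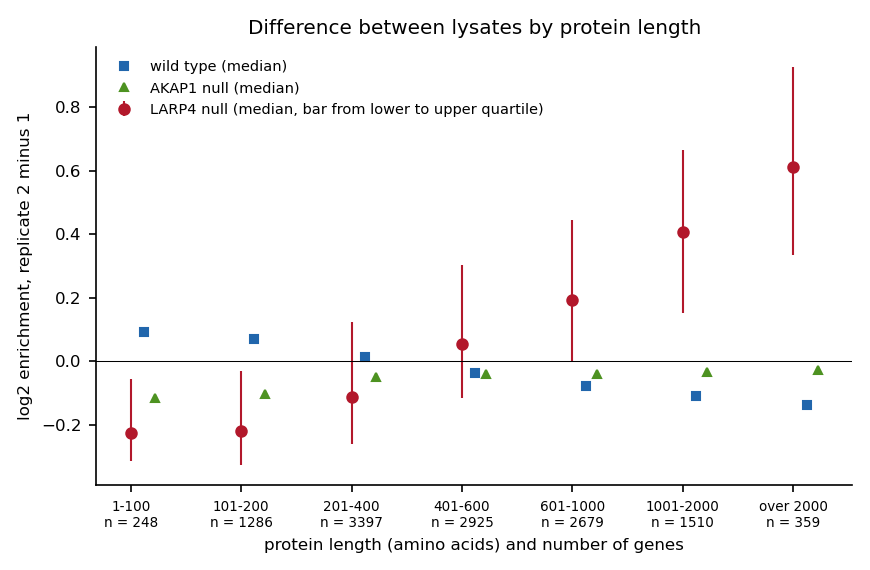
Difference in log2 enrichment between replicate 2 and replicate 1 (y axis) of protein-coding genes in bins of protein length (x axis, with the number of genes), as LARP4 null medians with bars from the lower to the upper quartile and wild-type and AKAP1 null medians. The LARP4 null median climbs from -0.23 to 0.61, while the other lines stay between -0.14 and 0.09.

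In both LARP4 null lysates RNA enrichment was higher where wild-type mitochondrial footprints were higher. Over protein-coding genes the median enrichment was -0.51 and -0.26 where the mitochondrial footprint log2 was below -1 (1024 genes), 0.32 and 0.18 from 0 to 0.5 (1131 genes), 1.02 and 0.77 from 1 to 1.5 (245 genes) and 1.27 and 1.19 above 2 (61 genes). Of these 61 genes 55 were enriched. Outside the mitochondrial list enrichment also rose over the lower bins of ER footprint log2. The medians were -0.56 and -0.17 below -1 (579 genes) and 0.17 and 0.12 from 0 to 1 (809 genes). They were 0.16 and 0.07 from 1 to 2 (417 genes). Genes with an ER footprint log2 above 2 were back at 0.02 and -0.02 (1134 genes, 152 enriched and 152 depleted). By compartment, inner membrane proteins had a median of 0.55 (113 of 208 enriched), proteins listed only as membrane 0.51 (9 of 19), the matrix 0.36 (142 of 356), the intermembrane space 0.32 (13 of 39) and the outer membrane 0.14 (16 of 58).

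In the comparison with wild-type cells, which asks where loss of LARP4 goes with another enrichment, 0 of 14709 genes passed an adjusted p of 0.05 (0%, edgeR interaction test over 12 libraries), and 2346 had an unadjusted p below 0.05. DESeq2 called 4 genes higher and 498 lower. With a LARP4 null replicate left out, the spread comes from the other lines alone, so counts from those fits are no evidence of a difference. The median difference over all genes was 0.10 without replicate 2 and 0.22 without replicate 1. The difference also depends on the scale. Its median over all genes was 0.17 on library totals and -0.04 with TMM or DESeq2, so the values here are best read against 0.17.

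The short locally translated messages had lower values than in wild-type cells, although no member passed the edgeR test. Their median difference was -0.76 (-0.97 with TMM), from -1.07 to -0.47, and the median enrichment was 1.48 and 1.16 in LARP4 null against 2.04 and 2.19 in wild-type lysates. All 31 had both LARP4 null values below both wild-type values, a pattern found in 12% of all genes. The smallest adjusted p among the 31 was 0.157. The pattern was not particular to this list. It was found in 108 of 142 mitochondrial genes under 200 aa below the footprint threshold, with a median difference of -0.41. Without replicate 2, 21 of the 31 were called lower, compared with 0.714% of all genes, and DESeq2 called all 31 lower, compared with 3.39% of all genes. The count without replicate 2 rests on a single LARP4 null lysate and is no evidence of a difference. UQCRQ was at 1.93 and 1.69 compared with 2.70 and 2.82 in wild-type cells, a fitted difference of -0.96 (adjusted p = 0.157). COX6A1 was at 3.15 and 2.87 against 3.8 in both wild-type lysates (-0.79, adjusted p = 0.157), and NDUFB9 differed by -0.50 (adjusted p = 0.308).

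The long list had a median difference of -0.18 (-0.39 with TMM), with lysate medians of 0.93 and 1.11 compared with 0.98 and 1.31 in wild-type cells. Of its 50 genes 26 had both LARP4 null values below both wild-type values and 0 had both above, where 42.5% of all genes lay above. DESeq2 called 2 of the 50 lower, near its share of 3.39% over all genes. UQCRC1 differed by -0.32 (adjusted p = 0.368) and PMPCA by -0.27 (adjusted p = 0.383). Among other groups, 76 of 79 cytosolic ribosomal protein genes lay below both wild-type values, with a median difference of -0.59, and 70 were called lower by DESeq2. For complex IV the counts were 12 and 11 of 12, with a median of -0.78. In AKAP1 null cells the short list had medians of 0.46 and 0.32 and the long list 2.19 and 2.73, given side by side without a test.

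**Figure D5:**
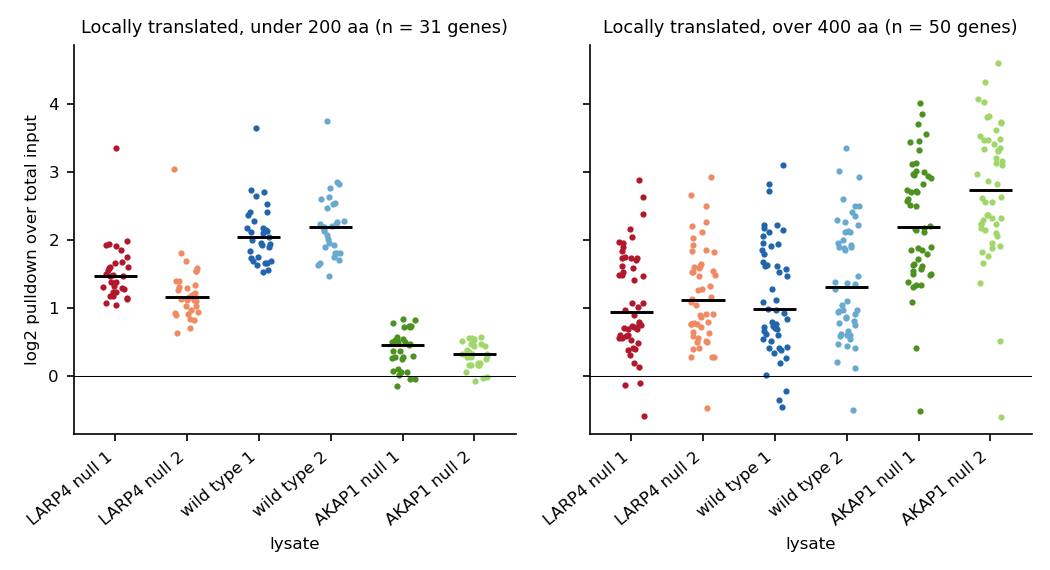
Log2 pulldown over total input (y axis) of each locally translated message under 200 aa (left, 31 genes) and over 400 aa (right, 50 genes) in the 6 lysates (x axis), 1 point per gene, with black lines at the medians. The short messages have medians of 1.48 and 1.16 in LARP4 null, 2.04 and 2.19 in wild-type and 0.46 and 0.32 in AKAP1 null lysates.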

How the data were processed

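RNA-seq was made from total input and streptavidin pulldown RNA of the same lysate (GEO labels polyA RNA, while the methods describe rRNA depletion). The authors aligned paired reads to GRCh38 with STAR and counted reads per Ensembl 99 gene with featureCounts; the deposited counts were used as deposited. Strand and multi-mapping settings are not given in the sources used here. The submitters' processing notes name Bowtie. The deposited column of FPKM values is a score 10 times the FPKM that its reads give, and entered 1 alternative. Ribosome profiling files hold estimated counts and RPKM per coding sequence, as deposited by the authors. They gave the lists of locally translated messages (at least 64 footprints in the total, log2 RPKM ratio above 1.5 in mitochondrial replicate 1). The gene ANK2 spans broken lines in the count files and was left out.

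Tests used edgeR 4.0.16 (quasi-likelihood, limma 3.58.1, R 4.3.3, two-sided) on library totals, with the lysate as a replicate block since pulldown and total share it, and DESeq2 1.42.0 as an alternative. The mitochondrial list holds 1056 genes found in the files (7 names had no match). Protein length, exons and gene classes came from GENCODE 44, and list names from gene symbols. Data of 14709 genes with 200 changed were simulated. The main test found 0% of the changes at a log2 of 0.5, 62.5% at 1 and 96.0% at 2. The comparison with wild type found 5%, 61.0% and 96.5%. In all other genes the simulated pulldowns followed the total inputs, without the background of replicate 2. The shares found are therefore not the power of the tests in the real data. There, 456 of the 1618 enriched genes had a fitted log2 above 1. Members, lists and tests were chosen with earlier results of these data known. Named genes were LARP4, AKAP1, SYNJ2BP and RPL29, the 10 largest called rises and falls among protein-coding genes with at least 1000 reads, the top 5 of the short, long and other groups, the nuclear RNAs, the 5 largest differences between lysates in each direction, and up to 4 members of each list. GPX4, IMMT, FASTKD1, AASS, GPD2 and ATP5F1B were named after their values were seen. Of the genes that this rule names, 1 is left out of the text and some list members are given by count only.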

Additional observations from a re-analysis of the deposited data

Results flagged for a closer look

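AKAP1 had opposite directions in 2 lines. Its enrichment was 0.59 and 1.13 in the LARP4 null lysates and -0.51 and -0.60 in the AKAP1 null lysates, a difference in means of 1.41 on the log2 scale. The AKAP1 gene is the edited gene of the second line, where its total input level was 32.1 and 20.3 CPM. This difference was not tested.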

How the results depend on the processing

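The counts depended on the paired fit, since without the replicate block 0 genes were enriched and 0 depleted (3473 at an unadjusted p below 0.05). With TMM 2477 genes were enriched, with all 12 libraries 3123 were enriched and 4351 depleted, and leaving out a replicate gave 3314 to 4093 enriched and 4083 to 5848 depleted. Fits with a replicate left out, here and against wild type, take the spread of that line from other lines. Their counts are therefore no evidence of a difference. Against wild type, DESeq2 gave 4 higher and 498 lower, no read minimum gave 771 and 316, leaving out a LARP4 null or wild-type replicate gave 0 to 4756 and 0 to 1152, and edgeR with a replicate block by number or without a block gave 0 and 0 (2093 and 427 at an unadjusted p below 0.05).

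TMM moved the replicate difference of all lists alike, turning it to -0.08 for all genes and -0.11 for the long list, and to -0.50 for the short list, -0.30 for mitochondrial proteins (mean enrichment 0.45), -0.48 for complex IV, -0.46 for ribosomal proteins, 0.25 for zinc finger genes and 1.04 for nuclear RNAs. The higher read minimum gave 0.056 for all genes. Of 480 values of the 48 named genes, 414 kept direction and call, 38 lost and 12 gained the call, and 16 turned. MALAT1 turned to 0.058 with DESeq2, 0.04 with TMM and 0.46 without the block, TUG1 to 0.072, 0.054 and 0.093, and ENSG00000263731 to 0.36 without the block. Leaving out a replicate gave -1.22 to 1.16 for MALAT1, -0.70 to 0.67 for TUG1, -1.15 to 0.54 for KCNQ1OT1, -0.86 to 1.84 for LINC00632, -1.16 to 1.34 for ENSG00000246596, -0.62 to 1.74 for ENSG00000260404, -0.72 to 0.43 for ENSG00000263731, -0.14 to 0.50 for ENSG00000170089 and -0.011 to 0.70 for SH3BGRL3. Against wild type EIF4G1 turned to -0.15 with DESeq2 and TMM, and SYNJ2BP to -0.15 with both. Leaving out a replicate gave -0.066 to 0.20 for EIF4G1. Background could not be subtracted, because the nuclear list stood at 1.86 times its total input level in replicate 2. The cause of these changes was not tested.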
